A study of Mus musculus with 6 samples.

Results

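The genes described here encode the heat shock chaperones of the cytosol and the mitochondrion, with their co-chaperones and the 2 heat shock factors. They were taken from a list of 35 gene symbols, each of which matched 1 of the 43629 gene IDs in the deposited tables. The list holds 6 small heat shock proteins, 7 HSP40 proteins, 8 HSP70 proteins, 3 HSP90 proteins, 2 chaperonin subunits, 7 co-chaperones and 2 heat shock factors. The samples are RNA-seq libraries of primary dermal fibroblasts, which make the collagen of the skin, taken from newborn mice and grown for 6 days (passage 1). Every mouse was of mixed background, 50% C57Bl/6 and 50% FVB/N, and carried Col1a2Cre, by which Cre is active in fibroblasts. The 3 ctrl libraries came from mice with Cre only, and the 3 caNrf2 libraries from mice that also had a mutant Nrf2 that is constitutively active. Nrf2 is the transcription factor that drives antioxidant and detoxification genes. No cells without Cre were among the samples, and the labels do not say in what share of the cultured cells the mutant was active. The titles give a group and a number for each library, so p-values measure the spread between these samples.

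Chaperones bind unfolded proteins and help them to fold, or hold them until they can be refolded or degraded. Small heat shock proteins hold unfolding proteins without using ATP, HSP40 proteins hand clients to HSP70 and start its ATPase, HSP70 and HSP90 fold them in cycles of ATP hydrolysis, and chaperonins enclose them in a chamber. Under heat or oxidative stress the heat shock factor HSF1 switches many of these genes on, while constitutive members such as Hspa8 and Hsp90ab1 are abundant in unstressed cells.

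Libraries held 30168400 to 45164208 expected counts, and 1 read equalled 0.0221 to 0.0331 CPM (counts scaled to a common library total). Nfe2l2, which encodes Nrf2, stood at 113, 103 and 112 CPM in ctrl replicates 1 to 3 and at 352, 430 and 358 CPM in caNrf2 replicates 1 to 3, in accord with the labels; these counts do not separate the mutant from the endogenous transcript. The fibroblast markers were present in every library, led by Col1a1 with 17603 ± 3234 in ctrl and 11967 ± 762 CPM in caNrf2 (mean ± SD, n = 3 per group), and moved in both directions. Col1a1 (log2FC -0.56), Col1a2 (-0.70) and Col3a1 (-0.99) were called lower, while the surface markers Pdgfra (0.41, adjusted p = 0.0115) and Thy1 (0.40, 0.0144) were called higher. The 3 collagen genes held 90.5% to 95.8% of the summed CPM of the 7 fibroblast markers, so the summed level follows them. Markers of other cells differed between the groups: 14 of 15 macrophage and leukocyte genes were called higher, with a summed level of 23.5 to 66.7 CPM in ctrl and 168 to 203 CPM in caNrf2, and so were 11 of 14 tested skeletal muscle genes. Lyz2, the most abundant leukocyte marker, was at 26.5 ± 14.0 in ctrl and 97.6 ± 9.82 CPM in caNrf2, and Ptprc, the leukocyte gene of smallest adjusted p (0.00077), at 0.594 ± 0.217 and 2.67 ± 0.184 CPM. In bulk RNA, fewer cells of a type and less RNA per cell cannot be told apart.

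Of the 35 chaperone genes, all of which were tested, 17 rose, 1 fell and 17 did not pass the test (edgeR's quasi-likelihood test with Benjamini-Hochberg adjustment over 15341 genes, adjusted p under 0.05). That is 48.6% called higher and 2.86% called lower, where 12.5% of all genes tested were called higher and 9.03% were called lower. The median log2 fold change (log2FC) of the chaperone genes was 0.23, against -0.0031 over all genes, and 32 of the 35 had a positive sign, against 49.6% of all genes. The 17 that rose did so by 1.18-fold to 2.74-fold, with 8 at 1.5-fold or more and 3 at 2-fold or more. Of all genes called higher, 66.2% reached 1.5-fold. In 21 chaperone genes every caNrf2 library was above every ctrl library and in 1 every caNrf2 library was below, which holds for 22.0% and 20.1% of all genes (42.1% in either direction). Overlap was judged in CPM throughout. In TPM the groups of Hsp90aa1, Hspa4, Dnajb2 and Hsf2, which are among the 21, overlapped or met. The count called higher was 11 without ctrl replicate 3 and also 11 without caNrf2 replicate 2, and 9 without both, when Dnaja2 (adjusted p = 0.0619), Ahsa1 (0.0542) and Hspa9 were no longer called.

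**Figure D1:**
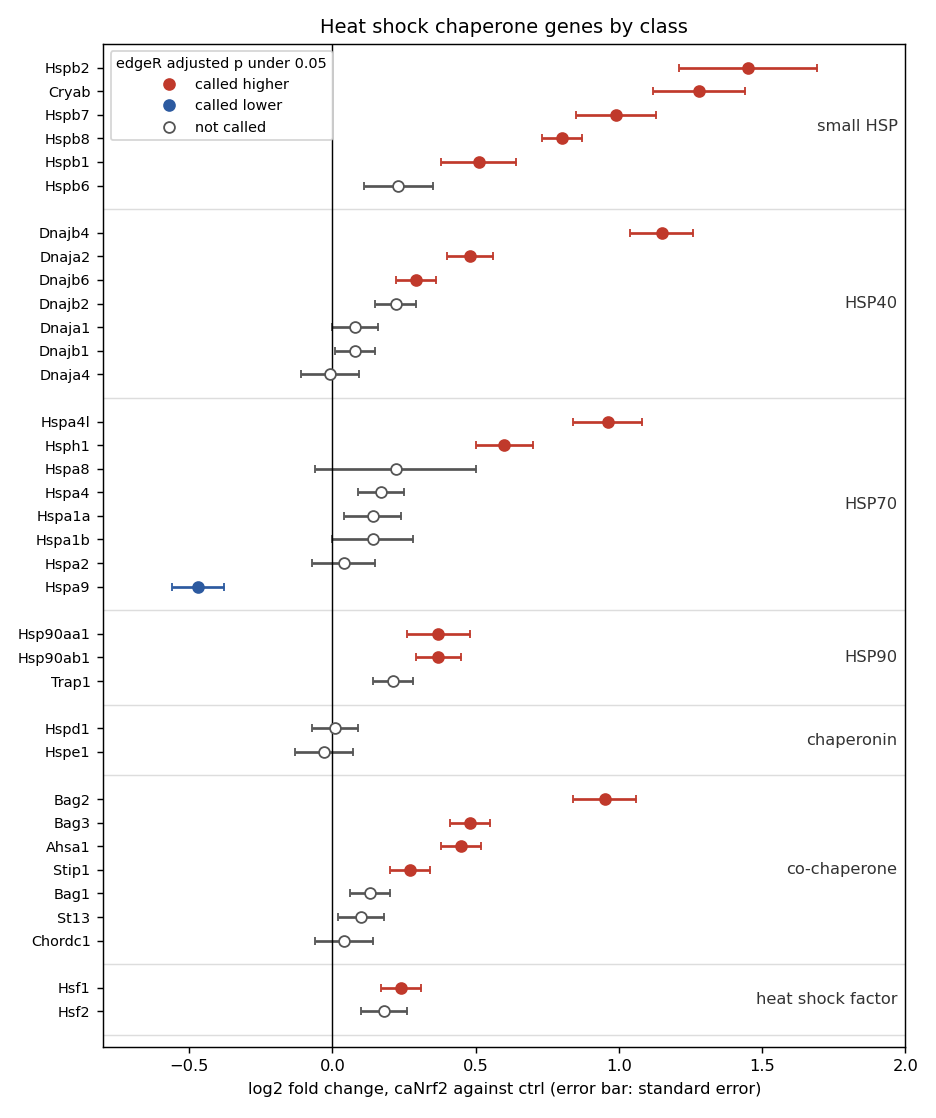
Log2 fold change of each chaperone gene in caNrf2 against ctrl (x axis, with its standard error), grouped by class; filled red points were called higher, the filled blue point lower, and open points were not called. The small heat shock protein genes have the highest class median, 0.90, and Hspa9 is the single gene called lower.

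Each class held both called and uncalled genes except the chaperonin, in which neither gene was called. By location, 17 of the 31 genes whose proteins act outside the mitochondrion rose and none fell, with a median log2 fold change of 0.27. Of the 4 mitochondrial chaperones, Hspa9, Hspd1, Hspe1 and Trap1, 0 rose and 1 fell, with a median of -0.01. This split was made after the values were seen, and the difference between the sets was not tested.

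The promoters were searched for the motif that heat shock factors bind, inverted repeats of GAA. Several held a match, whether or not the gene rose. RefSeq promoters (GRCm38.p6, 250 bases before to 50 after each start) were matched for 27 of the 35 genes, the others being Hspb2, Cryab, Hspa8, Hspa9, Hsp90aa1, Hsp90ab1, St13 and Hsf1. The repeat of a pair of units, GAANNTTC or TTCNNGAA, each of which reads the same on both strands, was in 14 of the 27 promoters and in 17.0% of the promoters of 27025 genes. The longer repeat of 3 units, GAA, TTC and GAA or TTC, GAA and TTC with NN between them, always contains the shorter one and was in 5 of 27 and in 0.662% of all. The core of the antioxidant response element to which Nrf2 binds with its small MAF partners, searched as TGACNNNGC on both strands, was in 5 of 27 and in 14.0% of all, and with the other letter it allows, TGAGNNNGC, in 9 of 27 and in 19.8% of all. By call, 6 of the 12 matched genes that rose held the heat shock repeat (Hspb1, Hspb8, Dnajb4, Dnajb6, Hsph1 and Bag3), as did 8 of the 15 matched genes that were not called (Hspb6, Dnaja1, Dnaja4, Hspa1a, Hspa1b, Hspd1, Hspe1 and Chordc1). TGACNNNGC was in 2 of those 12 (Dnaja2 and Hsph1) and 3 of those 15, and TGAGNNNGC in 2 of those 12 (Ahsa1 and Stip1) and 7 of those 15. The heat shock repeats of Hspb8, Bag3 and Chordc1 all reach the transcribed part of the window, so none lies wholly upstream of the start.

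Stretches of 6 promoters show the matches in capitals. Hspa1a and Hspe1 were not called, and the other 4 genes rose. The stretches lie at chr17:34972227-34972286 (minus strand), chr1:55088038-55088097 (plus), chr5:135887789-135887848 (plus), chr5:29735828-29735887 (plus), chr5:149636357-149636486 (minus) and chr8:85555362-85555421 (minus). Capitals mark heat shock repeats in the first 4, heat shock repeats and TGACNNNGC read from the other strand in Hsph1, and TGACNNNGC read from the other strand in Dnaja2.
Hspa1a: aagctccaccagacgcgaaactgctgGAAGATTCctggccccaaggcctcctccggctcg
Hspe1: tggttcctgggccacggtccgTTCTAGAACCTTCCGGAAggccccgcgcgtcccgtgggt
Hspb1: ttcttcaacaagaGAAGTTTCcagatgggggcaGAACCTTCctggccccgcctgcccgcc
Dnajb6: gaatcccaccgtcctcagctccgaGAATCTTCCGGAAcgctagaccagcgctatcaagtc
Hsph1: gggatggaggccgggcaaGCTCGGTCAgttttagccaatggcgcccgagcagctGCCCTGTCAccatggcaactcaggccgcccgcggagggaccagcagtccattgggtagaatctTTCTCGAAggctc
Dnaja2: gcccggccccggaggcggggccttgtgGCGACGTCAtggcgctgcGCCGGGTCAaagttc
The repeat in Hspe1 also lies in 1 of the RefSeq promoter windows of the divergent gene Hspd1 (chr1:55087883-55088182, minus) and outside another that starts further upstream (chr1:55088194-55088493, minus). A match describes the letters in the window and was not tested for binding.

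Of the 6 small heat shock protein genes 5 rose, and their median log2 fold change of 0.90 was the highest of the classes. Their summed level was 324 to 420 TPM (a scale corrected for transcript length) in ctrl and 604 to 733 TPM in caNrf2. Cryab (ENSMUSG00000032060) encodes alpha B-crystallin, which holds unfolding proteins and binds intermediate filaments. It stood at 94.5, 83.6 and 61.9 CPM in ctrl replicates 1 to 3 and at 210, 206 and 167 CPM in caNrf2 replicates 1 to 3. Every caNrf2 library lay far above every ctrl library, 80.0 ± 16.6 against 195 ± 23.7 CPM (mean ± SD, n = 3 per group). The change was 2.43-fold, a log2 fold change of 1.28 (SE 0.16, adjusted p = 0.000648).

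Hspb2 (ENSMUSG00000038086), its neighbour on chromosome 9, is transcribed from the opposite strand, with 403 bases between the 5′ ends of the annotated genes (Hspb2 at 50751072 to 50752354 and Cryab at 50752758 to 50756633, GRCm38). Hspb2 encodes a small heat shock protein best known from muscle and was the least abundant of the class per length, at 2.20 TPM on average in ctrl and 5.77 TPM in caNrf2. It stood at 0.874, 0.781 and 0.958 in ctrl and at 2.65, 1.8 and 2.70 CPM in caNrf2. The groups did not overlap, and caNrf2 replicate 2 was the lowest of its group. This was the highest fold among the chaperone genes, 2.74, with a log2 fold change of 1.45 (SE 0.24, adjusted p = 0.00297).

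Hspb7, a small heat shock protein of heart and skeletal muscle, stood at 5.05, 4.49 and 4.10 in ctrl and at 8.63, 10.2 and 8.22 CPM in caNrf2. It rose 1.98-fold, a log2 fold change of 0.99 (SE 0.14, adjusted p = 0.00135). Hspb8 encodes the partner with which BAG3 sends misfolded proteins to autophagy. Its ctrl values lay close together, 55.2, 55.9 and 57.0 CPM, against 102, 98.8 and 93.2 CPM in caNrf2, a rise of 1.75-fold (log2FC 0.80, SE 0.07, adjusted p = 7e-05).

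Hspb1, the mouse gene of the abundant and stress-inducible HSP27 (HSP25 in mice), stood at 68.4, 63.2 and 49.6 in ctrl and at 89.1, 94.1 and 74.7 CPM in caNrf2. The groups did not overlap, though ctrl replicate 1 and caNrf2 replicate 3 were close. Its rise was 1.42-fold, a log2 fold change of 0.51 (SE 0.13, adjusted p = 0.0245). This call was lost without ctrl replicate 3 (adjusted p = 0.0642), without caNrf2 replicate 1 (0.0676) and without caNrf2 replicate 2 (0.0846). Hspb6, which encodes HSP20, was not called: 24.5, 29.2 and 23.6 CPM in ctrl overlapped with 31.6, 33.5 and 26.1 CPM in caNrf2 (log2FC 0.23, SE 0.12, adjusted p = 0.197).

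Several of these genes are strongly expressed in muscle, and skeletal muscle markers were also higher in caNrf2. Of 16 such markers 14 were tested, 11 were called higher and 0 lower, with a median log2 fold change of 0.78. Their summed level was 165 to 183 CPM in ctrl and 239 to 325 CPM in caNrf2. The most abundant per length, Actc1, was at 26.5 ± 2.83 in ctrl and 45.3 ± 6.29 CPM in caNrf2 (mean ± SD, n = 3 per group), and Acta1 had the smallest adjusted p of the list, 0.000689, at a log2 fold change of 0.84. Of the defining factors of muscle precursors, Myf5 and Pax7 were at or near 0, with at most 0.0377 CPM in either group's mean. Myod1, at 1.40 ± 0.337 and 2.38 ± 0.420 CPM, was not called (adjusted p = 0.0522). Its log2 fold change of 0.75 was near the list median, and its groups did not overlap. Myog, which encodes the muscle differentiation factor myogenin, was called higher, at 5.26 ± 0.401 and 9.66 ± 0.570 CPM (log2FC 0.88, adjusted p = 0.00101). By library, the muscle markers summed to 165, 183 and 176 CPM in ctrl replicates 1 to 3 and to 239, 316 and 325 CPM in caNrf2. The small heat shock protein genes summed to 249, 237 and 197 CPM in ctrl and to 444, 444 and 372 CPM in caNrf2. The order of the libraries within each group differed between the sums, with 3 libraries in each group. The second sum mostly follows Cryab, Hspb1 and Hspb8, at 80, 60.4 and 56 CPM on average in ctrl. Hspb6 (25.8 CPM), Hspb7 (4.54 CPM) and Hspb2 (0.871 CPM) add less, so its order says little about them. The part of muscle cells and of leukocytes in these and the other chaperone results was not tested.

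**Figure D2:**
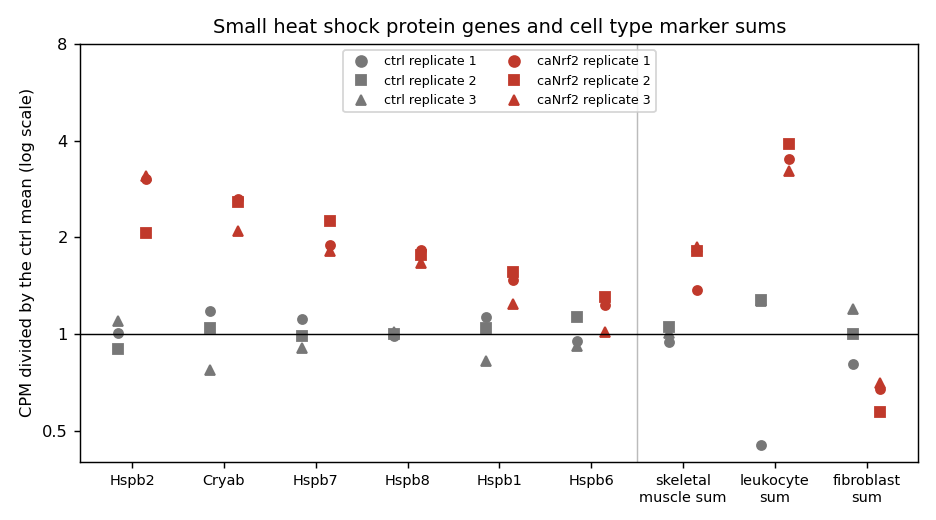
CPM of each library divided by the ctrl mean (y axis, log scale) for the 6 small heat shock protein genes and for the summed markers of skeletal muscle, leukocytes and fibroblasts; gray points are the 3 ctrl libraries and red points the 3 caNrf2 libraries. Cryab, Hspb2, Hspb7, Hspb8 and Hspb1 do not overlap between the groups, and neither do the 3 marker sums.

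Of the 7 HSP40 genes, which encode the J-domain partners of HSP70, 3 rose, and the class median was 0.22. Dnajb4, which encodes an HSP40 of the same subfamily as the heat-inducible Dnajb1, had the highest fold, with 47.3, 57.6 and 50.4 CPM in ctrl and 109, 130 and 105 CPM in caNrf2. All caNrf2 libraries were clearly above the ctrl libraries, a rise of 2.22-fold (log2FC 1.15, SE 0.11, adjusted p = 0.000132). Dnaja2, which encodes a major cytosolic HSP40, stood at 154, 136 and 136 in ctrl and at 204, 201 and 189 CPM in caNrf2. Its groups were separate, and it rose 1.40-fold (log2FC 0.48, SE 0.08, adjusted p = 0.00443).

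Dnajb6 encodes a strong suppressor of polyglutamine aggregation, also mutated in a limb-girdle muscular dystrophy in humans. It rose by less, from 81.3, 80.8 and 75.5 CPM in ctrl to 98.9, 98.0 and 93.4 CPM in caNrf2, which is 1.22-fold (log2FC 0.29, SE 0.07, adjusted p = 0.0187). The groups did not overlap, but the call was lost without ctrl replicate 3 (adjusted p = 0.0864), caNrf2 replicate 2 (0.0802) or caNrf2 replicate 3 (0.0501). The other 4 HSP40 genes were not called. The most abundant of these, Dnaja1, was at 164, 152 and 150 in ctrl and 159, 170 and 163 CPM in caNrf2, overlapping ranges (log2FC 0.08). Dnajb1, the HSP40 most strongly induced by heat, also had a log2 fold change of 0.08 and the co-chaperone gene Dnaja4 one of -0.0086. Dnajb2 had 0.22 with an adjusted p of 0.0504, and its groups did not overlap.

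The HSP70 class split. Of 8 genes 2 rose, 1 fell and 5 were not called, with a median of 0.15. The genes that rose both encode HSP110-type proteins, which release nucleotide from HSP70 and dissolve aggregates with it. Hspa4l stood at 49.3, 39.5 and 37.1 in ctrl and at 74.0, 87.0 and 84.3 CPM in caNrf2, a rise of 1.95-fold with separate groups (log2FC 0.96, SE 0.12, adjusted p = 0.000576). Hsph1, which encodes HSP105, stood at 150, 141 and 125 in ctrl and at 193, 233 and 207 CPM in caNrf2. It rose 1.52-fold, again without overlap (log2FC 0.60, SE 0.10, adjusted p = 0.00393). The third gene of this type, Hspa4, was not called (log2FC 0.17, adjusted p = 0.182), although its groups did not overlap.

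Hspa9 (ENSMUSG00000024359) encodes mortalin, the HSP70 of the mitochondrial matrix, which pulls imported proteins through the inner membrane. It was the only chaperone gene called lower, with 895, 939 and 1042 CPM in ctrl and 690, 647 and 733 CPM in caNrf2. Every caNrf2 library was below every ctrl library, 959 ± 75.6 against 690 ± 43.1 CPM (mean ± SD, n = 3 per group). Its log2 fold change was -0.47 (SE 0.09, adjusted p = 0.00763), which leaves 0.720 of the ctrl level. The call held without any single library and was lost without ctrl replicate 3 and caNrf2 replicate 2 together (log2FC -0.37, adjusted p = 0.127).

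The genes of the stress-inducible HSP70, Hspa1a and Hspa1b, were not called. They lie on the minus strand of chromosome 17 (34969190 to 34972156 and 34956436 to 34959238, GRCm38), and their coding sequences are 99.6% identical, so reads could be divided between them. Hspa1b was at 39.3, 39.1 and 27.1 in ctrl and 39.9, 40.9 and 35.7 CPM in caNrf2, and Hspa1a at 10.3, 10.4 and 9.92 against 11.5, 11.9 and 10.3 CPM. The ranges overlapped in both. Summed, they had a log2 fold change of 0.14 (SE 0.12, adjusted p = 0.437). Their 250 upstream bases are 98.8% identical, and Hspa1b carries the stretch printed for Hspa1a at the same distance from its start. Hspa2, an HSP70 of the testis, had a log2 fold change of 0.04.

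Hspa8 (ENSMUSG00000015656) encodes HSC70, the constitutive HSP70. Summed over its transcripts, it had the highest TPM of the chaperone genes in both group means (1467 TPM in ctrl and 1764 TPM in caNrf2). Hsp90ab1, at 1184 and 1467 TPM on average, was above it in ctrl replicate 3 (1163 against 1084 TPM) and caNrf2 replicate 2 (1593 against 1446 TPM). The Hspa8 libraries did not follow the groups: 1323, 1381 and 671 CPM in ctrl, and 1515, 902 and 1521 CPM in caNrf2. ctrl replicate 3 and caNrf2 replicate 2 were low, the others high, so that the log2 fold change of 0.22 had an SE of 0.28 (adjusted p = 0.609). It was -0.04 without ctrl replicate 3 and 0.43 without caNrf2 replicate 2. The same libraries were high for Gm15459 (ENSMUSG00000100801), a processed pseudogene of Hspa8 on chromosome 5 (5781615 to 5783555, minus strand, GRCm38). Gm15459 was at 605, 606 and 1062 in ctrl and 643, 1341 and 677 CPM in caNrf2. A second pseudogene, Gm8355 on chromosome 10, was listed at 69.2 CPM in ctrl replicate 3 and 63.9 CPM in caNrf2 replicate 2, and at 0 in the other 4 libraries.

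Over its 1941 bases Gm15459 differs from the coding sequence of Hspa8 at 5 positions (99.7% identity) and Gm8355 at 25 (98.7%), by comparison of the GENCODE M21 transcripts. As counted here, Gm8355 spans 14745362 to 14746117 (minus strand, GRCm38), which is shorter than its M21 transcript. The first 120 bases show how close Hspa8 and Gm15459 are, with the single difference in capitals.
Hspa8: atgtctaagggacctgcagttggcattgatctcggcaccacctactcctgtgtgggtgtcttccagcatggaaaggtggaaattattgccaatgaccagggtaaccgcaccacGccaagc
Gm15459: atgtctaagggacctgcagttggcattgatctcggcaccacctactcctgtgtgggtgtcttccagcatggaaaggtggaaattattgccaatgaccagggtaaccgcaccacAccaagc
Of the 50-base words of Gm15459, 86.8% also occur in Hspa8, and such reads have to be divided between the genes by estimate. Gm15459 held 31.4%, 30.5% and 58.9% of the summed counts in ctrl and 29.8%, 58.1% and 30.8% in caNrf2. The Hspa8 transcript ENSMUST00000015800 was listed at 0 TPM in ctrl replicate 3 and 3.15 TPM in caNrf2 replicate 2, and at 268.13 to 303.98 TPM in the other 4.

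Summing the 3 genes removed most of the spread. The sum was 1928, 1987 and 1802 CPM in ctrl and 2158, 2307 and 2198 CPM in caNrf2, so that the groups no longer overlapped (1906 ± 94.7 against 2221 ± 77.3 CPM, mean ± SD, n = 3 per group). The log2 fold change stayed at 0.22 while its SE fell to 0.08, and the sum was not called (adjusted p = 0.0868). The search for look-alike genes was made after the Hspa8 values were seen. In all, 15 genes sharing at least 50% of their 50-base words with 1 of 6 chaperone genes were summed into them, and 2 of these 15 held over 5% of the count of their chaperone gene. These were Gm15459 and Gm15542, a pseudogene of Dnaja1. Dnaja1 summed with its look-alikes was not called either (log2FC 0.08, adjusted p = 0.53). No call among the chaperone genes changed with the sums.

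**Figure D3:**
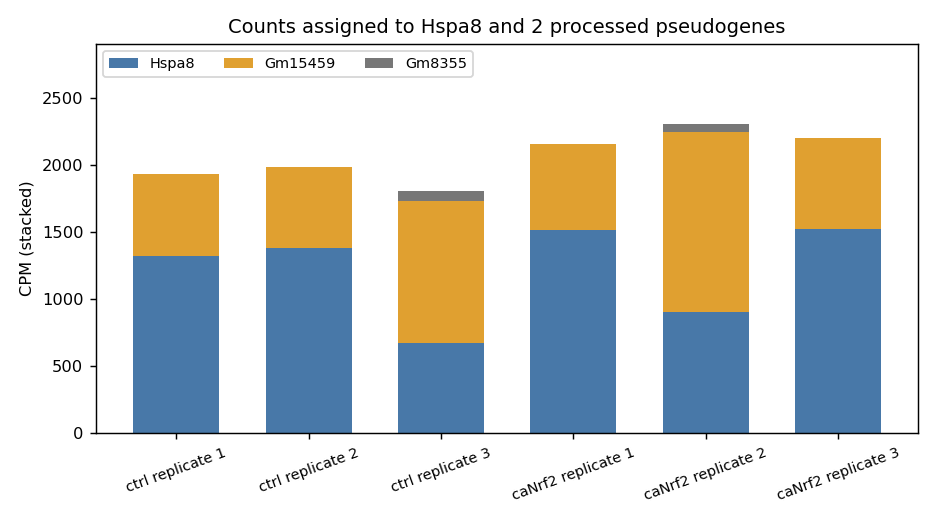
CPM assigned to Hspa8 (blue), Gm15459 (orange) and Gm8355 (gray), stacked for each of the 6 libraries (y axis, linear from 0). The blue part is low in ctrl replicate 3 and caNrf2 replicate 2, where the orange part is high, and the full bars reach 1802 to 1987 CPM in ctrl and 2158 to 2307 CPM in caNrf2.

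Both cytosolic HSP90 genes were called higher by the same factor, and the class median was 0.37. HSP90 completes the folding of kinases and steroid receptors. Hsp90ab1, the constitutive form, stood at 1499, 1619 and 1513 in ctrl and at 1952, 2096 and 1925 CPM in caNrf2, 1.29-fold higher (log2FC 0.37, SE 0.08, adjusted p = 0.0139). Hsp90aa1, the inducible form, stood at 637, 604 and 509 in ctrl and at 724, 818 and 713 CPM in caNrf2, also 1.29-fold higher (log2FC 0.37, SE 0.11, adjusted p = 0.0419). Neither gene overlapped between the groups in CPM. In TPM Hsp90aa1 did, at 504, 414 and 409 in ctrl and 448, 568 and 518 in caNrf2. Hsp90aa1 made up 27.4% ± 2.33 of the pair's counts in ctrl and 27.4% ± 0.588 in caNrf2 (SD, n = 3 each).

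The Hsp90ab1 call was lost without ctrl replicate 3 (adjusted p = 0.0591), caNrf2 replicate 2 (0.074) or caNrf2 replicate 3 (0.0569). The Hsp90aa1 call was lost without any library other than ctrl replicate 1 (0.0599 to 0.144), with upper-quartile factors (0.057) and with total counts (0.0504). Trap1, the mitochondrial HSP90, was at 89.2, 89.8 and 85.1 in ctrl and 105, 103 and 98.6 CPM in caNrf2. Its groups did not overlap, but it was not called (log2FC 0.21, SE 0.07, adjusted p = 0.058).

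The mitochondrial chaperonin genes, which encode the HSP60 chamber and its HSP10 lid, showed no change past the test: edgeR, DESeq2 and limma-voom each called 0 of 2, and 0 had an unadjusted p under 0.05. Hspe1, the more abundant per length, was at 129, 120 and 135 in ctrl and 144, 116 and 116 CPM in caNrf2, overlapping ranges (log2FC -0.03, SE 0.10, adjusted p = 0.88). Hspd1 was at 377 ± 3.01 in ctrl and 380 ± 16.5 CPM in caNrf2 (mean ± SD, n = 3 per group; log2FC 0.01, SE 0.08, adjusted p = 0.919), and its sign turned with upper-quartile factors (-0.02) and total counts (-0.0034). The genes are transcribed in opposite directions on chromosome 1 and overlap at their 5′ ends as annotated (Hspd1 at 55077835 to 55088243 on the minus strand and Hspe1 at 55088132 to 55091307 on the plus strand, GRCm38). Between the 5′ ends of their most abundant transcripts, at 55088024 and 55088132, lie 107 bases.

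Of the 7 co-chaperone genes 4 rose, with a class median of 0.27. Bag2, whose protein releases nucleotide from HSP70 and inhibits the ubiquitin ligase CHIP, rose most. It stood at 26.6, 32.5 and 26.1 in ctrl and at 51.4, 61.4 and 52.1 CPM in caNrf2, 1.93-fold higher with separate groups (log2FC 0.95, SE 0.11, adjusted p = 0.000474). Bag3, the partner of HSPB8 in chaperone-assisted autophagy, had very even values of 81.9, 82.7 and 80.7 CPM in ctrl and 112, 116 and 114 CPM in caNrf2. It rose 1.39-fold (log2FC 0.48, SE 0.07, adjusted p = 0.00116).

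Ahsa1, which encodes the activator of the HSP90 ATPase, stood at 75.0, 80.1 and 78.3 in ctrl and at 105, 112 and 102 CPM in caNrf2. The groups were separate, and it rose 1.37-fold (log2FC 0.45, SE 0.07, adjusted p = 0.00287). Stip1, whose protein HOP joins HSP70 to HSP90, rose 1.21-fold, from 134, 139 and 134 CPM to 158, 171 and 162 CPM (log2FC 0.27, SE 0.07, adjusted p = 0.0303). The Stip1 call was lost without any library other than caNrf2 replicate 1 (adjusted p = 0.0542 to 0.12). St13, which encodes the HSP70-interacting protein HIP, was not called, at 214, 192 and 201 in ctrl and 213, 222 and 213 CPM in caNrf2 (log2FC 0.10). Bag1 had a log2 fold change of 0.13 and Chordc1, whose protein binds HSP90, one of 0.04, and neither was called.

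Hsf1 itself was called higher by a narrow margin. It stood at 33.4, 36.8 and 35.4 in ctrl and at 43.0, 41.3 and 40.4 CPM in caNrf2, 1.18-fold higher without overlap (log2FC 0.24, SE 0.07, adjusted p = 0.0465). The call was lost in 13 of 18 alternatives, among them every left-out library (adjusted p = 0.0712 to 0.132), DESeq2 (0.0521) and limma-voom (0.0512). Hsf2 was not called, at 18.6, 16.5 and 18.8 in ctrl and 20.9, 20.1 and 20.1 CPM in caNrf2 (log2FC 0.18, adjusted p = 0.161). HSF1 is controlled mainly at the protein level, which these data do not measure.

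**Figure D4:**
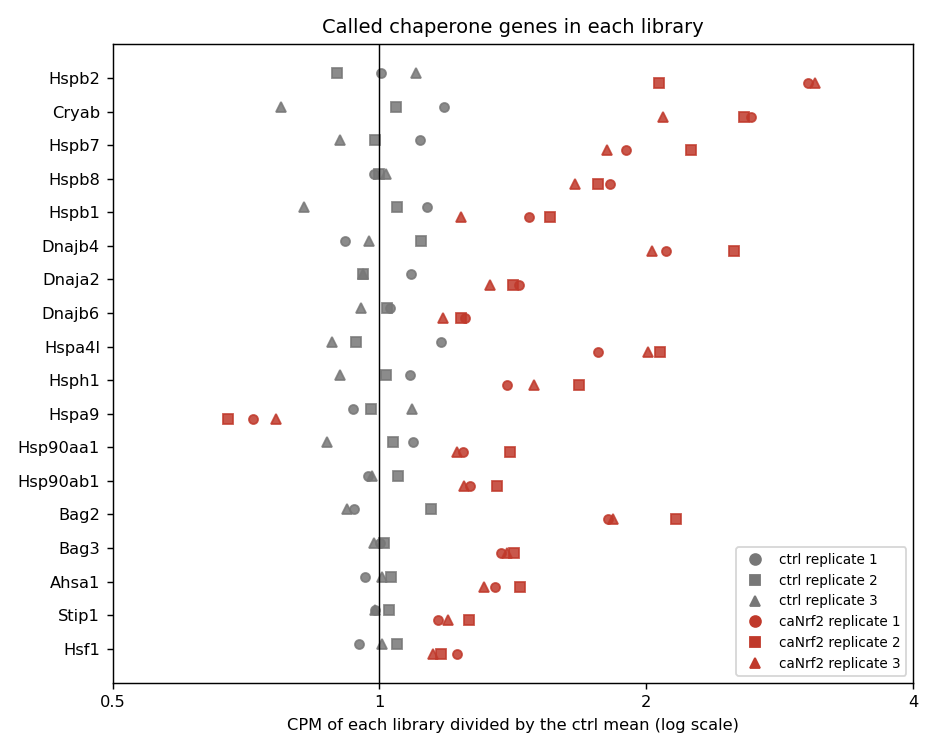
CPM of each library divided by the ctrl mean (x axis, log scale) for the 18 called chaperone genes, ordered by class; gray symbols are ctrl and red symbols caNrf2 libraries, with a shape per replicate number. In all 18 genes the red and gray symbols are separate, to the left for Hspa9 and to the right for the other 17.

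The further folding genes outside the 35 form 6 lists of 49 genes, of which 9 were called higher and 2 lower, with a median log2 fold change of 0.13. The 22.4% called in either direction is near the share of all genes, 21.5% (12.5% higher and 9.03% lower), though 9 of the 11 were higher. A positive sign was held by 36 of the 49, against 49.6% of all genes. In 29 of the 49 the groups did not overlap, against 42.1% of all genes. The count of 11 was 4 to 9 with 1 library left out, with 4 without ctrl replicate 3 and also 4 without caNrf2 replicate 2, and 1 without both, when Afg3l2 was the gene still called. Their difference from the 35 or from all genes was not tested. In TRiC, the chaperonin of the cytosol that folds actin and tubulin, 2 of 8 subunit genes rose, Cct7 (log2FC 0.38, adjusted p = 0.0109) and Cct3 (0.31, 0.0267). This count was 0 without ctrl replicate 3, and 1 without ctrl replicate 1, caNrf2 replicate 2 or caNrf2 replicate 3. All 8 TRiC genes had a positive sign, from 0.11 to 0.38 with a median of 0.17. In all 8 every caNrf2 library was above every ctrl library in CPM, which holds for 22.0% of all genes. This separation depended on the scale: in TPM the groups overlapped for Tcp1, Cct2, Cct4, Cct6a and Cct8. They stayed separate in TPM for Cct3, Cct5 and Cct7. Of the 6 genes of prefoldin, which delivers clients to TRiC, edgeR called 0, with 1 at an unadjusted p under 0.05, and DESeq2 and limma-voom called 0 and 0. Of 10 other HSP90 co-chaperone genes 2 rose, Ptges3, which encodes p23 (0.31, 0.0347), and Cdc37, which encodes the adaptor for kinases (0.30, 0.0474). Neither was called with upper-quartile factors, with total counts or without any 1 library other than ctrl replicate 1, where Ptges3 alone was called, as with the replicate block. Among 10 other J-domain genes Dnajb5 (0.38, 0.0323) and Dnajb12 were called higher and Dnajc7 lower (-0.34, 0.0104). The Dnajb5 call was lost with the replicate block and without any library other than ctrl replicate 2, and the Dnajb12 call without caNrf2 replicate 2. Of 8 other partners of HSP70 only Hspbp1 was called (0.46, 0.0221), and it was not called without ctrl replicate 1, ctrl replicate 3, caNrf2 replicate 1 or caNrf2 replicate 2. Of 7 mitochondrial protease genes Afg3l2 (0.61, 0.000396) and Spg7, which encode partner subunits of a protease of the inner membrane, rose; the Spg7 call was lost without any library other than ctrl replicate 2. Lonp1, the protease of the matrix, fell from 130, 170 and 194 CPM in ctrl to 108, 94.4 and 108 CPM in caNrf2 (log2FC -0.67, SE 0.14, adjusted p = 0.00928). Lonp1 and Hspa9 were thus both lower, and both were highest in ctrl replicate 3, as were Col1a1, Col1a2 and Col3a1. The other mitochondrial chaperone genes among the 35, Hspd1, Hspe1 and Trap1, were not called. Lonp1 and Hspa9 were set side by side after the values were seen, and a link between them was not tested.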

How the data were processed

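Total RNA of 6 cultures was sequenced. The authors deposited, per the file headers, expected counts and length-corrected TPM for 104129 transcripts per library. RSEM 1.2.21, CASAVA 1.8 and the build GRCm38 are named in the submitters' processing notes; not given in the sources used here are the aligner, strand setting and annotation release, so overlapping or antisense genes cannot be told apart. Expected counts were summed per gene and rounded. Genes passing filterByExpr (minimum count 10, minimum total 15) were tested with edgeR 4.0.16 (R 4.3.3; TMM, two-sided quasi-likelihood test, Benjamini-Hochberg adjustment, threshold 0.05); values are TMM-scaled CPM, and a gene past the threshold is said to be called. The code was tested on simulated data. TPM served to compare levels between genes.

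The 35 genes, the further lists and the cell type markers were chosen with earlier results of these data known. All 35 are named; called genes get their library values, fold, SE and adjusted p, of the others the most abundant of each class its library values, and of each further list the called genes of highest and lowest log2 fold change. Dnajb12, Spg7, Col3a1, Pdgfra, Thy1, Myod1, Myog, Myf5, Pax7, Gm15459, Gm8355 and Gm15542, and the library values of Hspa1a, Hspa1b and Lonp1, were added after values were seen. So were the look-alike sums with their limit of 50% shared 50-base words, the joint omission of ctrl replicate 3 and caNrf2 replicate 2, the motif forms and the printed stretches. Alternatives were other normalization factors, filters, DESeq2 1.42.0, limma-voom 3.58.1, posterior mean counts, Hspa1a and Hspa1b summed, the replicate block and each library left out. Of each cell type list the most abundant marker by TPM and the called marker of smallest adjusted p are named. Lists not given in the report were smooth muscle and pericyte (1 higher, 1 lower of 7 tested; Mcam, Abcc9), keratinocyte (1 of 9 higher; Krt14), endothelial (1 of 6 higher; Cdh5), melanocyte and Schwann (2 of 8 higher; Dct, S100b) and adipocyte (1 of 5 lower; Fabp4, Pparg). In the fibroblast list 2 were higher and 3 lower of 7 (Col1a1, Col1a2).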

Additional observations from a re-analysis of the deposited data

How the results depend on the processing

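The count of chaperone genes called higher, 17, was 15 to 18 under other normalization factors, filters, tests and counts, 11 to 15 with 1 library left out and 9 without ctrl replicate 3 and caNrf2 replicate 2 together, where 0 were lower and 1596 of all genes were called (3302 with all libraries; 2206 to 2898 with 1 left out). Of the 18 called genes, 9 kept their call in all 18 alternatives (Hspb2, Hspb7, Hspb8, Cryab, Dnajb4, Hspa4l, Hsph1, Bag2 and Bag3), 9 lost it in at least 1, and 0 changed sign. Where libraries were left out fewer samples were tested; other causes were not tested. Dnajb2 was gained with the stricter filter (adjusted p = 0.0459) and Trap1 with DESeq2 (0.0445). The replicate block gave 16 higher, 1 lower and 3218 genes in all; deviations of same-numbered libraries correlated at 0.214, 0.209 and 0.0953, so the numbers were not taken to pair the samples.

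Signs turned only among uncalled genes and in the chaperonin median. With 1 library left out, log2 fold changes ranged from -0.06 to 0.06 for Dnaja4, -0.02 to 0.22 for Hspa1b, -0.02 to 0.11 for Hspa2, -0.04 to 0.43 for Hspa8, -0.03 to 0.04 for Hspd1, -0.14 to 0.02 for Hspe1 and -0.02 to 0.14 for Chordc1, and the chaperonin median from -0.05 to 0.01. Hspd1 was at -0.02 with upper-quartile factors and -0.0034 with total counts. Without ctrl replicate 3 and caNrf2 replicate 2, Hspa1b was at -0.05, Hspd1 at -0.02, Hspe1 at 0.07, Chordc1 at -0.04 and the chaperonin median at 0.02.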
